A study of Drosophila melanogaster with 12 samples.

Results

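The genes described here are the glutathione transferase genes (Gst, of the classes D, E, O, S, T and Z) and the UDP-glycosyltransferase genes (Ugt) of Drosophila melanogaster. They were taken by symbol, every gene whose name starts with Gst and one of those capitals or with Ugt, which gave 70 of the 17492 genes in the tables, 35 Gst and 35 Ugt. All 70 are in both the mRNA and the pre-mRNA table. The study sequenced total RNA from carcasses of stationary third-instar larvae, that is, what is left of the larva once the internal tissues are taken out. The wildtype (WT) larvae were of strain w1118, and the mutant larvae (Nxt1) were trans-heterozygotes for Nxt1 listed under strain yw. The labels do not name the alleles, and because the strain changes with the genotype, an effect of strain and one of the mutation cannot be told apart. All larvae had food with 0.05% bromophenol blue for staging. The mRNA and pre-mRNA values come from 3 libraries per genotype marked M, read here as mock-treated, without the RNase R that degrades linear RNA. The labels do not say whether the replicates are separate pools of larvae, so p-values measure the spread between these libraries, which may be technical.

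Glutathione transferases join the tripeptide glutathione to reactive compounds, which makes them less harmful and easier to excrete. The delta (D) and epsilon (E) classes are specific to insects and arthropods, lie in large gene clusters and are known for breaking down insecticides, while omega (O), sigma (S), theta (T) and zeta (Z) enzymes are shared with vertebrates. UDP-glycosyltransferases sit in the membrane of the endoplasmic reticulum and attach a sugar from a UDP-sugar to lipophilic compounds, such as plant toxins and pigments. Fat body, gut and Malpighian tubules are known as main sites of both families in insects.

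The M libraries held 20077226 to 33261371 mRNA reads and 665661 to 1457708 pre-mRNA reads, recovered as whole reads from the deposited FPKM, a level scaled for gene length and sequencing depth. Levels of mRNA below are FPKM recomputed with each gene's own exonic length. For 17 members that length is assumed, which does not change the ratios of FPKM between the libraries of a gene, but bars comparison of its level with other genes. Through the limit of 1 FPKM and the added 1 given below, it can alter whether a gene is tested and its fold. The Nxt1 gene itself fell from 15.5 ± 1.95 to 9.81 ± 0.69 FPKM (SD, n = 3 each), by 0.60 on the log2 scale (limma adjusted p = 0.0149). Over all genes, 1 WT library, replicate 3, stood apart from the other 2 on the second principal component, which carried 20.6% of the variance. In each test below, log2(FPKM + 1) was compared with limma for every gene whose mean over the libraries reached 1 FPKM, and a gene is called where the Benjamini-Hochberg adjusted p over all genes tested is under 0.05. Since 1 is added, the folds of low genes are understated.

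Many Gst genes were higher in the Nxt1 carcasses, led by GstO3, GstD1 and genes of the GstE cluster. The share of tested Ugt genes called was near that over all genes. Of the 70 members 40 had enough RNA to be tested, and 14 rose and 3 fell. The filter uses the mean over both genotypes, so a gene can pass it through the genotype where it is high. Among called members this holds for GstE9 and Ugt37A3, at means of 0.315 and 0.298 FPKM in WT. It also holds for GstD8 and Ugt302K1, at 0.73 and 0.774 in Nxt1. Over all 9098 genes tested, 21.8% were called, 12.7% higher and 9.12% lower in Nxt1. Among 26 tested Gst genes 12 rose and 2 fell, with a median log2 fold of 0.50 against 0.01 over all genes tested. Among 14 tested Ugt genes 2 rose and 1 fell, with a median of -0.06. Without WT replicate 3 the Gst calls were 15 higher and 2 lower and the Ugt calls 3 higher and 3 lower. Calls over all 9098 genes also grew in that fit, to 1476 higher and 1215 lower. The 3 libraries of Nxt1 all lay above those of WT in 15 Gst and 2 Ugt genes and below them in 2 Gst and 3 Ugt genes, where over all genes tested 24.0% lay above and 19.6% below.

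These counts depend in part on the scaling between libraries. Set to equal totals of reads instead of the authors' scaling, the median of all genes moved to -0.32, the calls over all genes went from 1151 higher and 830 lower to 541 higher and 4440 lower, and the Gst calls went to 10 higher and 6 lower. Relative to the median of all genes the Gst median was 0.58 under equal totals and 0.50 under the authors' scaling. The edgeR test with its own scaling called 987 genes higher and 1149 lower, and among members the same 17 as limma.

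**Figure D1:**
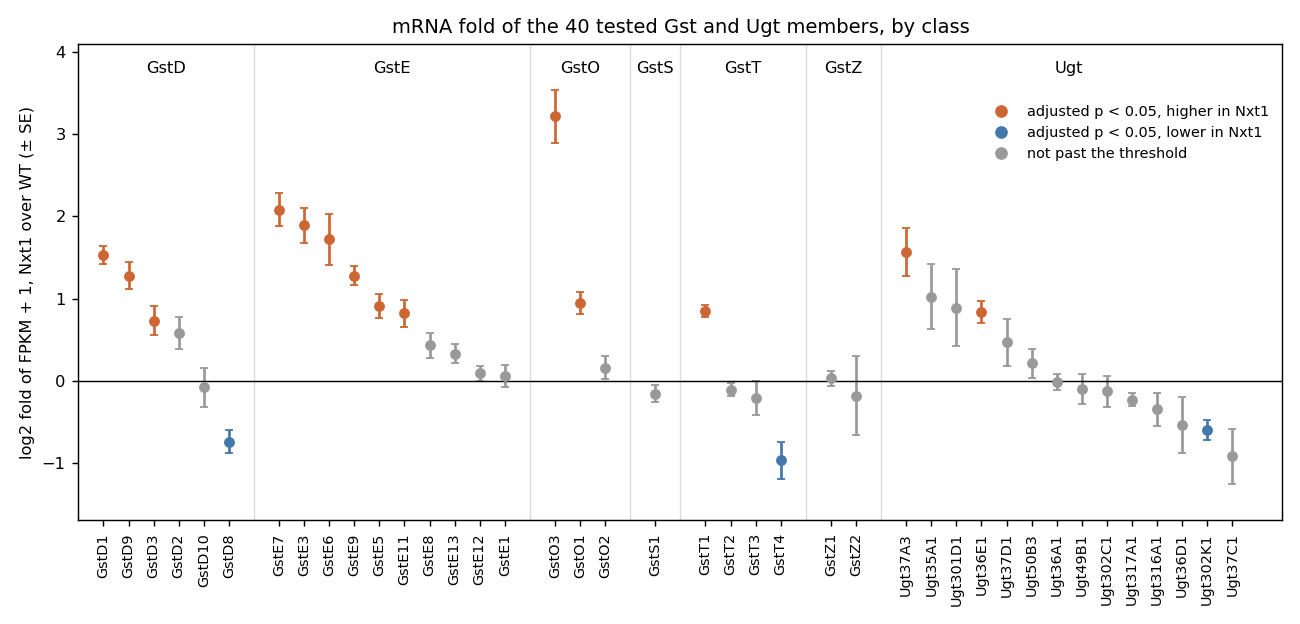
Log2 fold of FPKM + 1 in Nxt1 over WT (vertical axis, bars show the standard error) for the 40 tested members, ordered within each class. Orange points are the 14 members called higher, blue the 3 called lower and grey those not past the threshold, and the higher ones are mostly in GstD, GstE and GstO.

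Summed over the family, Gst reads per 1000000 mRNA reads numbered 1090.5, 1145.6 and 1362.2 for the WT libraries, against 2001.2, 1883.5 and 1877.3 for the Nxt1 libraries. No Nxt1 library came down to the range of WT. A single gene, GstD1, held 42.8%, 46.8% and 43.2% of the Gst reads in WT against 61.7%, 60.5% and 61.4% in Nxt1. The 95% Wilson interval of the lowest share is 42.3% to 43.3% and that of the highest 61.2% to 62.2%, for counting error only. Without GstD1, the summed level of the 27 other Gst genes with a length of their own was 446.1 ± 60.7 FPKM in WT and 744.5 ± 23.8 in Nxt1 (SD, n = 3 each). Most of that difference is GstO3. Without it as well, the other 26 summed to 403.8, 379.3 and 472.1 FPKM in WT and 518.4, 505.2 and 469.5 in Nxt1, which overlap. Ugt reads, in contrast, ranged from 393.6 to 678.5 on that scale in WT and from 415.3 to 535.3 in Nxt1, so the genotypes overlapped.

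**Figure D2:**
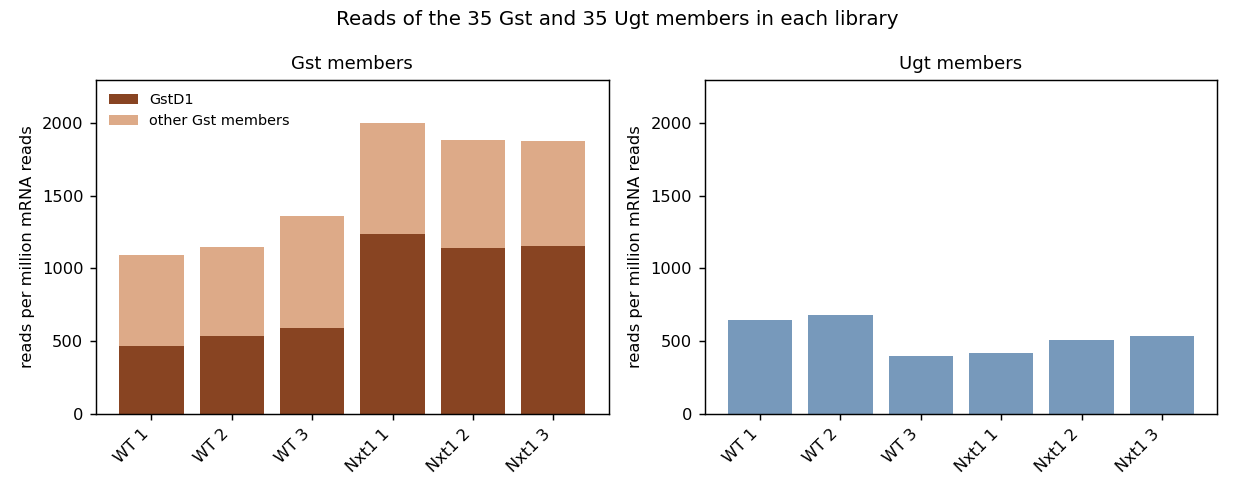
Reads of the 35 Gst (left, GstD1 dark) and 35 Ugt members (right) per 1000000 mRNA reads, one bar per library. The Gst bars stand at 1090.5 to 1362.2 in WT and 1877.3 to 2001.2 in Nxt1, while the Ugt bars overlap.

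GstD1 is the best known delta gene, an enzyme that dechlorinates DDT and whose promoter is widely used as a reporter of oxidative stress. It was read at 485.3, 557.0 and 605.5 FPKM in WT and at 1655.2, 1552.6 and 1534.0 in Nxt1. Every Nxt1 library was far above the WT range, and the gene moved from rank 118 to rank 46 by mean level among 11586 genes with reads and a length of their own. The change was 2.88-fold (log2 1.53, SE 0.114, limma adjusted p = 0.00139), and it was called in every alternative run, with adjusted p of at most 0.0265.

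GstD1 lies in the GstD cluster on arm 3R, where GstD10, GstD9, GstD1, GstD2 to GstD8 and GstD11 follow each other with at most 20000 bases between neighbours. Its neighbour GstD9 had 3.14, 3.78 and 4.95 FPKM in WT and 12.7, 11 and 9.19 in Nxt1, a 2.42-fold rise (adjusted p = 0.00608). GstD3 had 15.4, 13.2 and 20.0 FPKM in WT and 23.2, 32.1 and 26.7 in Nxt1, 1.66-fold, with adjusted p = 0.0347. The rise of GstD3 had the highest adjusted p of the Gst rises. It was lost in 5 of the 6 fits that leave out a library (kept only without WT replicate 3, adjusted p up to 0.11), and under equal totals (adjusted p = 0.118). GstD2, at 1.94, 1.39 and 2.59 against 2.91, 3.01 and 4.37 FPKM, had groups that did not overlap but did not pass (adjusted p = 0.082). GstD10 did not pass either, with overlapping values of 2.96 ± 1.27 and 2.64 ± 0.479 FPKM.

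At the far side of the same cluster GstD8 went the other way. It had 1.93, 1.5 and 2.28 FPKM in WT and 0.836, 0.727 and 0.626 in Nxt1, a fall to 0.599-fold (adjusted p = 0.0165). The read counts behind it are low, 58, 44 and 65 in WT and 12, 17 and 15 in Nxt1, and the call was lost without WT replicate 1, Nxt1 replicate 2 or Nxt1 replicate 3 (adjusted p up to 0.0654). GstD4, GstD5, GstD6, GstD7 and GstD11 stayed under the filter. Of these, GstD5 had 1, 1 and 2 reads in WT against 11, 47 and 22 in Nxt1, and GstD7 had 9, 4 and 13 in WT and 0, 1 and 0 in Nxt1. Genes of this 1 cluster thus rose, fell or did not pass the test.

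The GstE cluster on arm 2R holds GstE10 and GstE1 to GstE9, and 5 of its 7 tested genes rose and none fell. Epsilon enzymes conjugate, among others, products of lipid peroxidation. GstE7 had 2.28, 1.33 and 2.56 FPKM in WT and 13.4, 12.9 and 9.40 in Nxt1, 4.24-fold (adjusted p = 0.00272). GstE3 had 10.0, 13.5 and 8.35 FPKM in WT and 52.9, 37.1 and 35.8 in Nxt1, 3.70-fold (adjusted p = 0.00387). For both, the lowest Nxt1 library was well above the highest WT library. GstE6 had 5.43, 2.49 and 6.92 FPKM in WT and 19.0, 20.0 and 14.1 in Nxt1, 3.28-fold (adjusted p = 0.016), and the call was lost without Nxt1 replicate 1 or 2 (adjusted p up to 0.0617).

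GstE9 and GstE5 started from low levels. GstE9 rose from 0.341, 0.315 and 0.288 FPKM to 2.5, 2.02 and 2.10 (adjusted p = 0.00196), on 10, 9 and 8 reads in WT against 35, 46 and 49 in Nxt1. Its log2 fold was 1.28 on FPKM + 1 and 2.72 by edgeR on the reads, the kind of gap that the added 1 leaves at low levels. GstE5 rose from 1.10, 1.54 and 1.32 FPKM to 4.14, 2.87 and 3.13, 1.88-fold (adjusted p = 0.0101).

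GstE1, the most abundant gene of the GstE cluster in WT and by the mean over all libraries, was among those that did not pass. It had 39.9, 30.9 and 40.7 FPKM in WT and 41.3, 34.5 and 39.7 in Nxt1, with overlapping groups, and was below GstE3 by mean in Nxt1 (log2 fold 0.06, SE 0.131, adjusted p = 0.79), and its log2 fold turned to -0.31 under equal totals. GstE8, at 1.51, 0.933 and 1.62 against 1.91, 2.43 and 2.11 FPKM, did not overlap but did not pass (adjusted p = 0.0908). GstE10, GstE2 and GstE4 were under the filter, with at most 15 reads in any library. Of these, GstE4 had 11, 9 and 12 reads in WT against 1, 0 and 6 in Nxt1, and GstE10 had 1, 1 and 3 against 5, 4 and 8.

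Outside the cluster, GstE11 had 16.7, 16.3 and 24.7 FPKM in WT and 36.0, 34.6 and 32.2 in Nxt1, 1.77-fold (adjusted p = 0.0198). That call was lost without WT replicate 1 or any of the 3 Nxt1 replicates (adjusted p up to 0.0713) and under equal totals (adjusted p = 0.0544). GstE12, the GstE gene with the highest level, had 89.8, 91.4 and 107.7 FPKM in WT and 104.0, 101.1 and 101.2 in Nxt1 (adjusted p = 0.53), and GstE13 had 13.3 ± 2.11 and 16.9 ± 1.12 (SD, n = 3, adjusted p = 0.0933), with a log2 fold of 0.33 that turned to -0.02 under equal totals. GstE14, known in Drosophila for a role in making ecdysone in the prothoracic gland, had at most 10 reads in any library and was not tested.

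**Figure D3:**
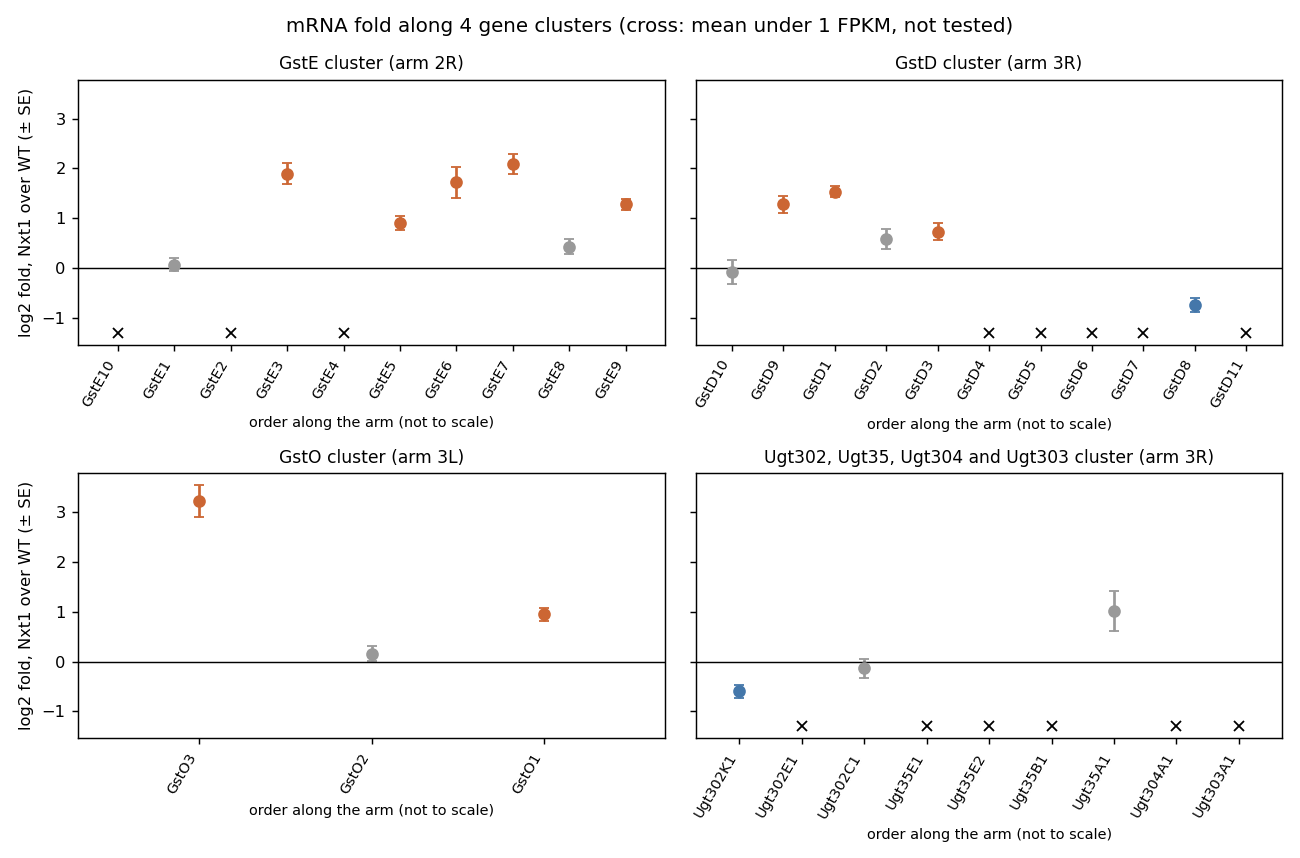
Log2 fold in Nxt1 over WT (vertical axis, bars show the standard error) of the genes of 4 clusters in their order along the chromosome arm, not to scale. Orange is called higher, blue called lower and grey not past the threshold, and a cross marks a gene under 1 FPKM on average. In the GstE panel 5 genes are called higher, in the GstD panel 3 higher and GstD8 lower, and in the Ugt panel only Ugt302K1, lower.

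The highest log2 fold of FPKM + 1 among members was that of an omega gene. Omega enzymes act mainly as thiol transferases and reductases rather than conjugating glutathione. GstO3 had 16.6, 23.3 and 43.3 FPKM in WT and 251.2, 236.3 and 252.9 in Nxt1. The Nxt1 libraries lay close together, and even the highest WT library, replicate 3, stayed far below them. The rise was 9.29-fold (log2 3.22, SE 0.321, adjusted p = 0.00287), the 19th highest log2 fold of the 9098 genes tested, and was called in every alternative run. On the reads the order differs, with a log2 fold of 3.10 by edgeR and 3.14 by DESeq2 for GstO3 and of 3.22 and 3.28 for Ugt37A3, a gene of few reads described below.

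GstO1, in the same cluster of GstO3, GstO2 and GstO1 on arm 3L, had 9.77, 12.4 and 14.0 FPKM in WT and 25.2, 22.5 and 24.4 in Nxt1, 1.93-fold (adjusted p = 0.00722). Between these, GstO2 had 52.3, 44.8 and 66.3 FPKM in WT and 59.3, 62.1 and 58.6 in Nxt1. Its groups overlapped and it did not pass (log2 fold 0.16, adjusted p = 0.477, and -0.21 under equal totals). GstO2 was thus the most abundant omega gene in WT and GstO3 in Nxt1. The omega-class gene se starts between GstO3 and GstO2, overlaps the span of GstO2 and is outside the symbol rule. It makes a precursor of the red eye pigment, had 9 to 27 reads in a library and was not tested.

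Of the 7 tested genes of the theta, sigma and zeta classes 1 rose and 1 fell, both theta genes. GstT1 had 21.9, 22.9 and 23.3 FPKM in WT and 39.5, 42.7 and 43.2 in Nxt1, 1.81-fold, with an assumed length (adjusted p = 0.00163). GstT4 had 78.1, 60.4 and 77.3 FPKM in WT and 36.3, 47.9 and 26.6 in Nxt1, a fall to 0.51-fold (adjusted p = 0.0287). For neither did the groups overlap, but the call of GstT4 was lost without WT replicate 1 or Nxt1 replicate 1 or 3 (adjusted p up to 0.0978). GstT2 had 6.66 ± 0.51 and 6.09 ± 0.355 FPKM and GstT3 2.54 ± 0.549 and 2.09 ± 0.791 (SD, n = 3), and neither passed.

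GstS1, the only sigma gene and an abundant protein of flight muscle, had 57.7, 68.5 and 68.8 FPKM in WT and 62.4, 53.9 and 58.0 in Nxt1 (log2 fold -0.16, adjusted p = 0.308). The zeta genes, which isomerise maleylacetoacetate in tyrosine breakdown, did not pass. GstZ1 had 8.29 ± 0.983 and 8.47 ± 0.317 FPKM, and GstZ2, the more variable, had 13.2, 9.91 and 26.2 in WT and 15.4, 21.7 and 6.81 in Nxt1.

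**Figure D4:**
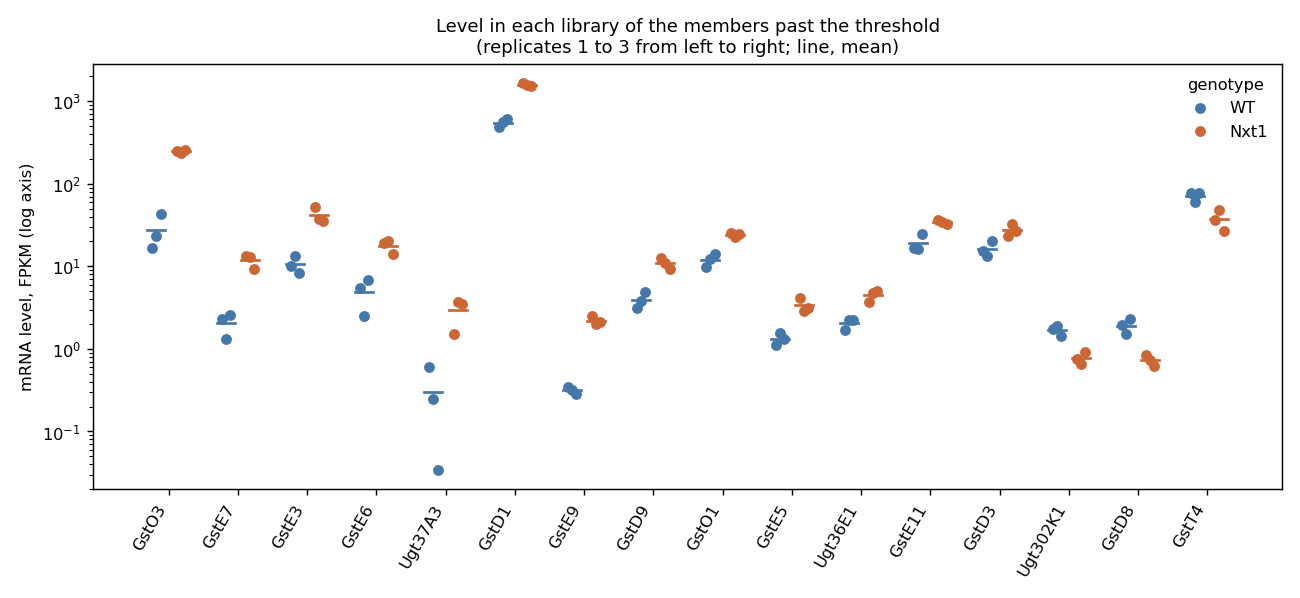
mRNA level in FPKM (log axis) in each of the 3 WT (blue) and 3 Nxt1 (orange) libraries for the called members with a length of their own, from the highest log2 fold to the lowest, with a line at each mean. GstD1 is highest, at 485.3 to 605.5 in WT and 1534.0 to 1655.2 in Nxt1, and in none of these genes do the genotypes overlap.

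The Gst genes differ in position and structure, and the calls can be set beside both. Of 16 tested Gst genes inside a cluster 10 rose and 1 fell, with a median log2 fold of 0.93, and of 10 outside clusters 2 rose and 1 fell, with a median of -0.04. Of 10 tested Gst genes without an intron 6 rose and 1 fell, and of 16 with introns 6 rose and 1 fell, with medians of 0.82 and 0.12. For GstE10, GstE14, GstT1, GstT2, GstT3, GstZ1 and GstZ2 the intronic length was assumed, and they are counted here as having introns. All but GstE10 lie outside clusters, among them GstT1, 1 of the 2 rises there. All 16 Gst genes counted as intronless lie in the GstD and GstE clusters. Of 6 tested Gst genes with introns inside a cluster 4 rose and 0 fell, with a median of 1.12, against 2 higher and 1 lower of 10 with introns outside clusters, with a median of -0.04. With no Gst gene outside clusters counted as intronless, position can be set out only among genes counted as having introns, and structure only inside clusters. The tested genes with introns are of the classes GstD and GstO inside clusters and GstE, GstS, GstT and GstZ outside. Position and class therefore cannot be told apart there. The figures on position and structure are counts and medians with no test between them. Cluster neighbours are close in sequence, and the sources used here do not say how reads shared by near-identical genes were counted, so values of single genes within the GstD and GstE clusters are less certain than their sums. The summed level of GstD genes was 577.1 ± 64.7 FPKM in WT and 1627.7 ± 62.7 in Nxt1 (SD, n = 3 each). Most of it is GstD1, with means of 549.3 and 1580.6. That of the 12 GstE genes with a length of their own was 187.2 ± 20.8 and 271.5 ± 18.2. This GstE sum is over the class and not the cluster alone. It includes GstE11, GstE12 and GstE13 from outside the cluster, of which GstE12 had means of 96.3 and 102.1.

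Among the 14 tested Ugt genes 3 were called, near the share of 21.8% over all genes. Ugt37A3 had 0.612, 0.248 and 0.0341 FPKM in WT and 1.52, 3.71 and 3.54 in Nxt1, on 38, 15 and 2 reads against 45, 179 and 175. It rose 2.96-fold on FPKM + 1 (adjusted p = 0.0169), a call lost without Nxt1 replicate 2 or 3 (adjusted p up to 0.064). Ugt36E1 rose from 1.71, 2.27 and 2.22 FPKM to 3.73, 4.74 and 5.05, 1.79-fold (adjusted p = 0.0103), and kept its call in every alternative run. Ugt302K1 fell from 1.72, 1.91 and 1.43 FPKM to 0.749, 0.649 and 0.924, to 0.66-fold (adjusted p = 0.0223), and kept its call in 1 of 6 fits that leave out a library, that without WT replicate 3 (adjusted p up to 0.0824). All 3 called Ugt genes are low, with means of at most 4.51 FPKM in either genotype. The fits without WT replicate 3 called 6 Ugt genes, against 1 without Nxt1 replicate 2 or without Nxt1 replicate 3. Over all 9098 genes the same fits called 2691, 725 and 749.

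Most Ugt reads came from genes that did not pass. Ugt301D1, Ugt36D1 and Ugt316A1 together held 59.9% to 83.9% of Ugt reads in a library. Ugt301D1 had 7713, 7309 and 2238 reads in WT against 3638, 8179 and 8700 in Nxt1, or 156.5, 152.2 and 48.0 against 154.8, 213.5 and 221.9 FPKM with an assumed length (log2 fold 0.89, SE 0.468, adjusted p = 0.223). Ugt36D1 had 127.7, 155.1 and 63.4 FPKM in WT and 63.5, 68.9 and 91.9 in Nxt1, also with an assumed length (log2 fold -0.54, SE 0.342, adjusted p = 0.296). Ugt316A1 had 30.8, 29.3 and 18.2 FPKM in WT and 18.9, 21.8 and 18.5 in Nxt1 (adjusted p = 0.253). In each of these genes WT replicate 3 was well below the other WT libraries and at or below the lowest Nxt1 library. Without it, Ugt36D1 (log2 fold -0.92, adjusted p = 0.0184) and Ugt316A1 (-0.58, adjusted p = 0.00947) were called lower, and Ugt301D1 (0.33, adjusted p = 0.195) was not called. Ugt35A1 was then called higher (1.36, adjusted p = 0.0349). Ugt316A1 and Ugt35A1 without that library were chosen after their values were seen.

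Ugt35A1 had 5.76, 2.61 and 9.09 FPKM in WT and 10.9, 16.2 and 8.92 in Nxt1 (log2 fold 1.02, SE 0.396, adjusted p = 0.12), and Ugt37C1 had 1.25, 0.853 and 3.00 in WT and 0.291, 0.793 and 0.0581 in Nxt1 (adjusted p = 0.103). Both are the extremes among uncalled Ugt genes, the first with overlapping groups. Ugt302C1, in WT the most abundant gene with its own length in the large Ugt cluster on arm 3R, below Ugt35A1 by mean in Nxt1, had 10.8, 10.2 and 17.4 FPKM in WT and 11.6, 11.5 and 10.9 in Nxt1 (adjusted p = 0.657). Ugt37D1 had 2.46 ± 1.12 and 3.72 ± 1.20 FPKM (SD, n = 3, adjusted p = 0.285). That cluster runs from Ugt302K1 to Ugt303A1 with 9 members, of which 3 were tested, against 7 of 10 in the GstE cluster. In all, 21 of 35 Ugt genes and 9 of 35 Gst genes were under the filter, 2 of them without a read, and no untested member had more than 47 reads in a library. Among these, Ugt49B2 had 0, 1 and 1 reads in WT against 7, 29 and 18 in Nxt1. With no filter, GstD4, GstD5 and Ugt49B2 were called higher and GstD3 was not called.

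Pre-mRNA values, read here as intronic reads, were available for few members. Of the 70 members 39 were at 0 in all 6 libraries and 11 were finite with reads. The other members were infinite in at least 1 library (9) or undefined in all (11), which is read here as a division by a length of 0. That length belongs to another gene in these tables, so the infinite values of GstO3, GstO2, GstE11 and GstT4 say nothing of their introns. Of the 11, 8 were tested and 0 were called by limma, against 0.745% of 3223 genes tested (24 genes, and 184 by edgeR). One of the 8, GstD1, had an unadjusted p under 0.05. Pre-mRNA levels are FPKM for intronic length on a scale of their own, where each read weighs more than in the mRNA values. They cannot be set against mRNA FPKM, so the balance of pre-mRNA to mRNA below uses reads.

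GstD1 pre-mRNA reads were 289, 223 and 355 in WT against 232, 476 and 519 for Nxt1, or 242.3, 189.9 and 353.3 against 465.1, 495.5 and 536.2 FPKM. The Nxt1 libraries were all higher after scaling, 1.96-fold (log2 0.97, SE 0.236), but the adjusted p was 0.11. The gene passed by edgeR (adjusted p = 0.0397), by DESeq2 (0.00721) and without WT replicate 3 (0.0437), and over all alternatives the adjusted p ranged up to 0.324. GstD9 pre-mRNA, at 28, 23 and 41 reads in WT against 9, 19 and 36 in Nxt1, gave 22.8, 19.0 and 39.6 against 17.5, 19.2 and 36.1 FPKM (log2 fold -0.16, SE 0.367, adjusted p = 0.861). Its mRNA rose while its pre-mRNA overlapped between genotypes. GstS1 pre-mRNA was at 6.0 ± 0.636 and 6.34 ± 1.36 FPKM and Ugt302C1 at 10.4 ± 4.84 and 7.69 ± 3.55 (SD, n = 3 each), both overlapping. Ugt50B3 had the most pre-mRNA reads of the 11 members with finite values, 267 to 642, but the gene TpnC4 lies within its span. Without knowing whether counting used the strand, reads of overlapping genes cannot be told apart, a limit on 12 members in all. Among called members it holds for GstE9, which overlaps imd, and Ugt36E1, which overlaps CG17597.

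The balance of pre-mRNA to mRNA, one of the questions named for the study, could be computed for 7 members tested in both tables. Per 100 mRNA reads GstD9 had 30.4, 21.3 and 29.9 pre-mRNA reads in WT against 5.08, 7.57 and 16.8 for Nxt1, and the groups did not overlap. Ugt36D1 had 0.477, 0.443 and 0.610 in WT and 0.738, 0.948 and 0.805 in Nxt1, with no overlap in the other direction. Both gave p = 0.1 in a two-sided exact permutation test, the smallest that 3 against 3 allows, and 0.28 after adjustment over the 7 members. GstD1, at 1.90, 1.31 and 1.97 against 0.936, 1.26 and 1.35, overlapped, as did GstS1, Ugt302C1, Ugt36E1 and Ugt50B3.

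**Figure D5:**
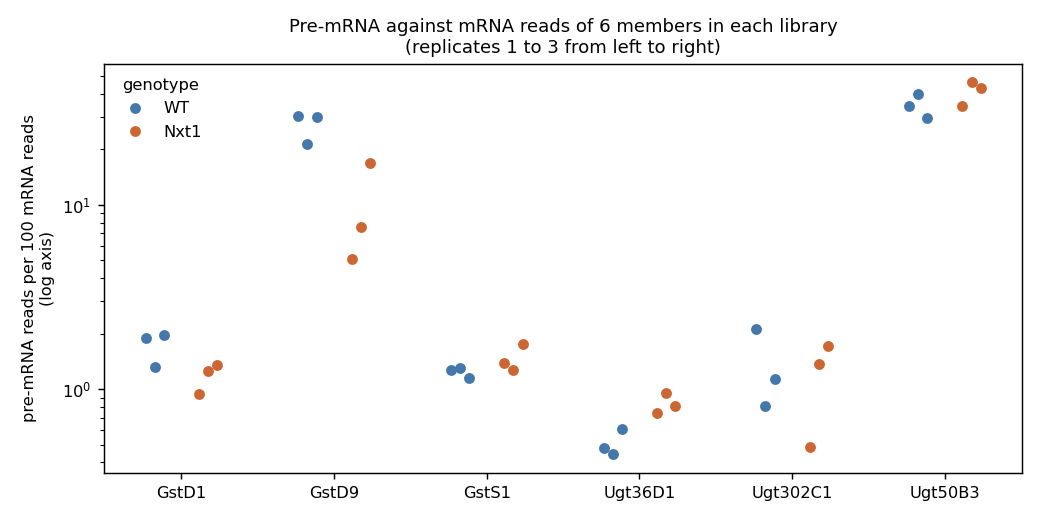
Pre-mRNA reads per 100 mRNA reads (log axis) in each WT (blue) and Nxt1 (orange) library for 6 members tested in both tables, Ugt36E1 left out because it is at 0 in some libraries. GstD9 is lower in all Nxt1 libraries, at 5.08 to 16.8 against 21.3 to 30.4, and Ugt36D1 higher.

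No circular RNA was listed for any member. Of 597 circRNA rows in the WT table and 467 in the Nxt1 table, from libraries marked R and read as RNase R-treated, 0 were hosted by a Gst or Ugt gene. The rows name only 445 host genes in WT and 366 in Nxt1, beside 17492 genes in the mRNA table. With so small a share over all genes, a count of 0 among 70 members says little about them.

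Of the genes around these pathways few were called outside the antioxidant enzymes. By limma, 0 of 6 tested genes for making and recycling glutathione were called, with 1 at an unadjusted p under 0.05 and 0 called by edgeR or DESeq2. Among them was Gclc, the catalytic subunit of the rate-limiting ligase, with 16.9, 15.2 and 6.79 FPKM in WT and 22.3, 23.6 and 21.0 in Nxt1 (adjusted p = 0.11). Neither cnc, Keap1 nor maf-S, the CncC activator, its inhibitor and its partner, known in flies to drive GstD1, was called by limma, edgeR or DESeq2, and 0 of these 3 had an unadjusted p under 0.05. Of 4 tested genes of receptors and a partner, Hr96, EcR, Hr38 and tgo, Hr38 was called, higher. At an unadjusted p under 0.05 there were 3 of these 4, and 3360 of all 9098 genes tested. The gene ss, also on that list, was under the filter and lower in Nxt1, at 0.974 ± 0.101 FPKM in WT and 0.618 ± 0.103 in Nxt1. Of 5 genes that supply UDP-sugars UGP, which makes UDP-glucose, was called, higher. The calls in both lists are near the share of 21.8% called over all genes. Of 4 tested ABC transporters 0 were called by any of these tools or at an unadjusted p under 0.05. Mgstl, a microsomal glutathione transferase, had a log2 fold of 0.30 and was not called (adjusted p = 0.116). Of 7 tested antioxidant genes, from a list of 14 of which the other 7 were not matched by symbol, 4 rose with the authors' scaling and 2 under equal totals. Cat, which breaks down hydrogen peroxide, had 210.7 ± 8.77 and 400.0 ± 11.1 FPKM (SD, n = 3 each, adjusted p = 0.00183), and the superoxide dismutases Sod1, Sod2 and Sod3 rose 1.67-, 1.72- and 1.56-fold.

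Markers of several cell types were called beside the Gst genes. In this bulk tissue fewer cells of a type and less RNA per cell cannot be told apart. Fat body markers rose in 4 of 7 tested, with a summed level of 2265.5 to 2493.4 FPKM in WT and 3906.7 to 5722.9 in Nxt1. By edgeR 4 of them were called and by DESeq2 7. Apoltp, also on that list, was under the filter and lower in Nxt1, at 0.919 ± 0.172 FPKM in WT and 0.374 ± 0.0369 in Nxt1. Epidermis and cuticle markers rose in 5 of 9 (36151.2 to 54497.9 against 84537.8 to 113835.8) and larval muscle markers in 4 of 9 (11082.0 to 24525.5 against 27652.9 to 36378.5), with 2 muscle markers called by edgeR and 7 by DESeq2, and both tissues are plainly present in the carcass. Salivary gland markers, of an internal tissue, rose in 5 of 7 (57.7 to 292.2 against 441.5 to 1219.9), with 2 called by edgeR and 6 by DESeq2.

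Midgut markers rose in 3 of 5 tested but stayed low (2.02 to 5.53 against 8.33 to 38.2), with lambdaTry at 0 in all libraries. Malpighian tubule markers were called in 0 of 3 by limma (5.04 to 6.84 against 8.26 to 9.52), with 1 at an unadjusted p under 0.05, and in 1 by edgeR and by DESeq2. Hemocyte markers rose in 3 and fell in 1 of 7 (179.0 to 244.9 against 381.7 to 588.2). Oenocyte markers fell in 1 of 3 by limma (509.4 to 597.7 against 383.7 to 505.3), with 2 called by edgeR and 2 by DESeq2. Neuron markers fell in 1 of 4 (24.9 to 26.2 against 22.3 to 27.1). A single limma call in lists this short is near the share of 21.8% called by limma over all genes. Whether these marker differences reflect tissue content, and what part they have in the Gst result, was not tested.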

How the data were processed

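RNA-seq libraries (TruSeq stranded total RNA with Ribo-Zero, pairs of 75 bases) gave separate FPKM tables of mRNA and pre-mRNA, deposited by the authors. Tools named, without their roles, in the submitters' processing notes are featureCounts 1.6.2, Subread, DESeq2, STAR 2.5.3a and Trimmomatic 0.36. No source used here names the genome build, so coordinates are left out, and sequences of genes were not used here. Counts of back-splice reads per circRNA, as deposited, served only to look up host genes. The mean scaled score that the authors deposited beside them and 4 columns of scaled values were not used.

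Symbols came from the reference tables for 17370 of 17492 IDs. Chromosome arms, neighbours and clusters (3 or more members, gaps of at most 20000 bases) came from RefSeq (Release 6 plus ISO1 MT). Ratios of FPKM between libraries gave back whole reads (tolerance 0.01) for each of 15293 mRNA and 4543 pre-mRNA genes that had reads and finite values, 394 and 141 of them only after multiplication by a common factor. Those reads also give the length that was used for each gene, and it was the length of another gene. Against a gene's own span it had a Spearman's rho of 0.028, and against the span of whichever gene holds the same place in the sorted ID list 0.934. Each length was returned to its gene. Where none was found, the median of 1323 bases, at most the span, was assumed (3707 genes with reads).

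Levels were tested with limma 3.58.1 (eBayes with trend, R 4.3.3) on log2(FPKM + 1) above a mean of 1 FPKM, genotype as the only term, with Benjamini-Hochberg adjusted p. Alternatives were the deposited lengths, a pseudocount of 0.1, no filter, equal totals, edgeR 4.0.16 and DESeq2 1.42.0 on recovered reads, a replicate block, each library left out and clusters with gaps of up to 50000 bases. The recovery and the fit were tested on simulated data. Named are all called members, and in each class and cluster the most abundant member and those with the highest and lowest fold. The members and lists were chosen with earlier results of these data known, and the lists were written from general knowledge.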

Additional observations from a re-analysis of the deposited data

How the results depend on the processing

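Of 17 called members, 10 kept their call in all 6 fits that leave out a library, and 9 in these and in all other alternatives run for them: GstO3, GstE7, GstE3, GstD1, GstE9, GstD9, GstO1, GstT1 and Ugt36E1. Leaving out each library in turn, the calls over all genes ranged from 725 to 2691 for mRNA (1981 with all libraries) and from 0 to 80 for pre-mRNA (24), those among Gst genes from 10 to 17 (14), among Ugt genes from 1 to 6 (3) and among members in pre-mRNA from 0 to 1 (0). Without WT replicate 3 the mRNA and pre-mRNA calls over all genes were the highest. Equal totals gave 4981 mRNA calls over all genes and 6 among Ugt genes. For pre-mRNA, the calls over all genes were 53 with the deposited lengths, 40 with no filter, 184 by edgeR and 207 by DESeq2, and the last 2 each called 1 member.

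Same-numbered libraries did not deviate together: the correlations of their deviations from the group means were -0.077, -0.135 and -0.313 for mRNA. Of 3 WT libraries 0 correlated best with their own number. No pairing by number was thus seen, which does not exclude that same-numbered libraries were prepared together. With the replicate block the calls were 551 for mRNA over all genes, 8 among Gst and 1 among Ugt genes, and 0 for pre-mRNA, and the 9 members called were all among the 17.

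Directions of uncalled members turned in some settings. Under equal totals the log2 fold was -0.31 for GstE1, -0.28 for GstE12, -0.21 for GstO2, -0.30 for GstZ1, -0.02 for GstE13, -0.16 for Ugt50B3 and -0.05 for GstS1 pre-mRNA. By edgeR it was -0.01 for GstE1, -0.03 for GstZ1 and 0.11 for Ugt49C1 pre-mRNA, which DESeq2 put at 0.06. With each library left out in turn, the mRNA log2 fold ranged from -0.07 to 0.13 for GstE1, -0.05 to 0.10 for GstZ1, -0.51 to 0.26 for GstZ2 and -0.26 to 0.10 for Ugt302C1. That of pre-mRNA ranged from -0.47 to 0.14 for GstD9, -0.03 to 0.22 for GstS1, -0.80 to 0.02 for Ugt302C1, -0.04 to 0.25 for Ugt36D1, -0.83 to 0.49 for Ugt36E1 and -0.72 to 0.54 for Ugt49C1. The cause was not tested. The number of clusters was 7 with either gap. Members with under about 50 reads in a library are limited by depth.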
